A study of Homo sapiens with 12 samples.

Results

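Fatty acid oxidation and ketone body formation were described in HepG2 cells through 34 genes, matched by symbol from a list of 34 names. All 34 were found among the 28256 gene symbols of the deposited table, each represented by its transcript with the highest total count over all libraries. Of these, 33 were among the 13166 genes with enough counts to be tested, and PDK4 was not. HepG2 is an established human hepatoma line, a tumour-derived model of hepatocytes kept in culture. RNA was sequenced from 12 libraries, 3 in each of 4 groups. Every group was wild type. Cells were first grown for 24 h on charcoal-stripped serum and then received, for a further 24 h, the vehicle DMSO at 0.1%, dexamethasone (Dex, a synthetic glucocorticoid) at 50 nM, KLA at a labelled 100 ng/µl, or Dex and KLA together (DexKLA). The labels leave KLA unexplained, state DMSO only for the vehicle libraries, and do not say whether replicates were separate cultures. The p-values therefore reflect how far these libraries scatter, a scatter that may be technical.

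Mitochondria oxidise fatty acids in a repeated cycle of dehydrogenation, hydration, a further dehydrogenation and thiolytic cleavage, each turn of which releases acetyl-CoA. Long chains enter through the carnitine shuttle, very long and branched chains are shortened in peroxisomes, and electrons pass through the electron transfer flavoprotein to the respiratory chain. In fasting liver the acetyl-CoA feeds ketone body synthesis, and the nuclear receptor PPAR alpha is the textbook activator of many genes of the pathway.

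Library totals ran from 3317740 (DMSO replicate 1) to 20933501 counts (KLA replicate 2), and every KLA library was deeper than every DMSO library, so depth and KLA treatment cannot be told apart in that comparison. Long and short transcripts were not counted alike in all libraries. Spearman's rho across genes, taken for each library between transcript length and the deviation from the 12-library mean, lay at 0.192 to 0.395 for DMSO, −0.534 to 0.137 for Dex, −0.526 to −0.152 for KLA and −0.134 to 0.385 for DexKLA. Markers of other cell types were looked at beside those of hepatocytes, in plain CPM (counts relative to the library total, with no further scaling). The 8 hepatocyte markers summed to 97600 to 152000 CPM per library. The 4 leukocyte markers summed to 3990 to 4700 CPM, nearly all of it LYZ, with CD3E at 0 in every library and PTPRC at 0 in all but KLA replicate 1. Sums were 2.66 to 4.09 CPM for endothelial markers (KDR at 0 in every library), 21.1 to 30.5 for fibroblast and stellate markers (nearly all PDGFRB) and 4.08 to 9.4 for adipocyte and muscle markers (ADIPOQ at 0 in every library). In bulk RNA, fewer cells of a type and less RNA per cell cannot be told apart.

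The summed level of the pathway without FABP1 moved little between groups. Leaving out FABP1, the liver fatty acid binding protein with a mean of 1620 CPM, the tested genes added up to 3550 ± 34.6 CPM under DMSO (TMM-normalised CPM, as for every tested gene below unless called plain, mean ± SD, n = 3 in every group here and below), 3720 ± 154 under Dex, 3710 ± 284 under KLA and 3670 ± 64.1 under DexKLA. The Dex and DexKLA sums lay above all DMSO sums, and the KLA sums overlapped them. With FABP1 included, the sums were 5030 ± 166, 5150 ± 284, 5790 ± 834 and 5170 ± 254 CPM in the same order. KLA replicate 3 had the highest of these, at 6733 CPM. For 31 of the 33 tested genes the highest group mean was less than 1.5 times the lowest. The exceptions were CPT1A (1.98 times) and PPARA (1.58 times). Within a group, replicates of a gene had a median coefficient of variation of 8.26%.

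Levels per kb of transcript ran from 2.14 CPM per kb for CROT, the peroxisomal carnitine octanoyltransferase, to 3320 for FABP1, with a median of 38.9 over the 33 genes. After FABP1 came ETFB (437 CPM per kb), ACAA1 (150), ETFA (128), ACAT1 (123) and ECI2 (112). At the low end stood PPARA (2.57), ETFDH (3.97), CPT2 (7.75), SLC25A20 (8.98) and CPT1A (9.97). The carnitine entry step was thus sparse beside the enzymes of the cycle, of which HADHA held 84.6 CPM per kb. These values depend on which transcript of a gene was counted.

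**Figure D1:**
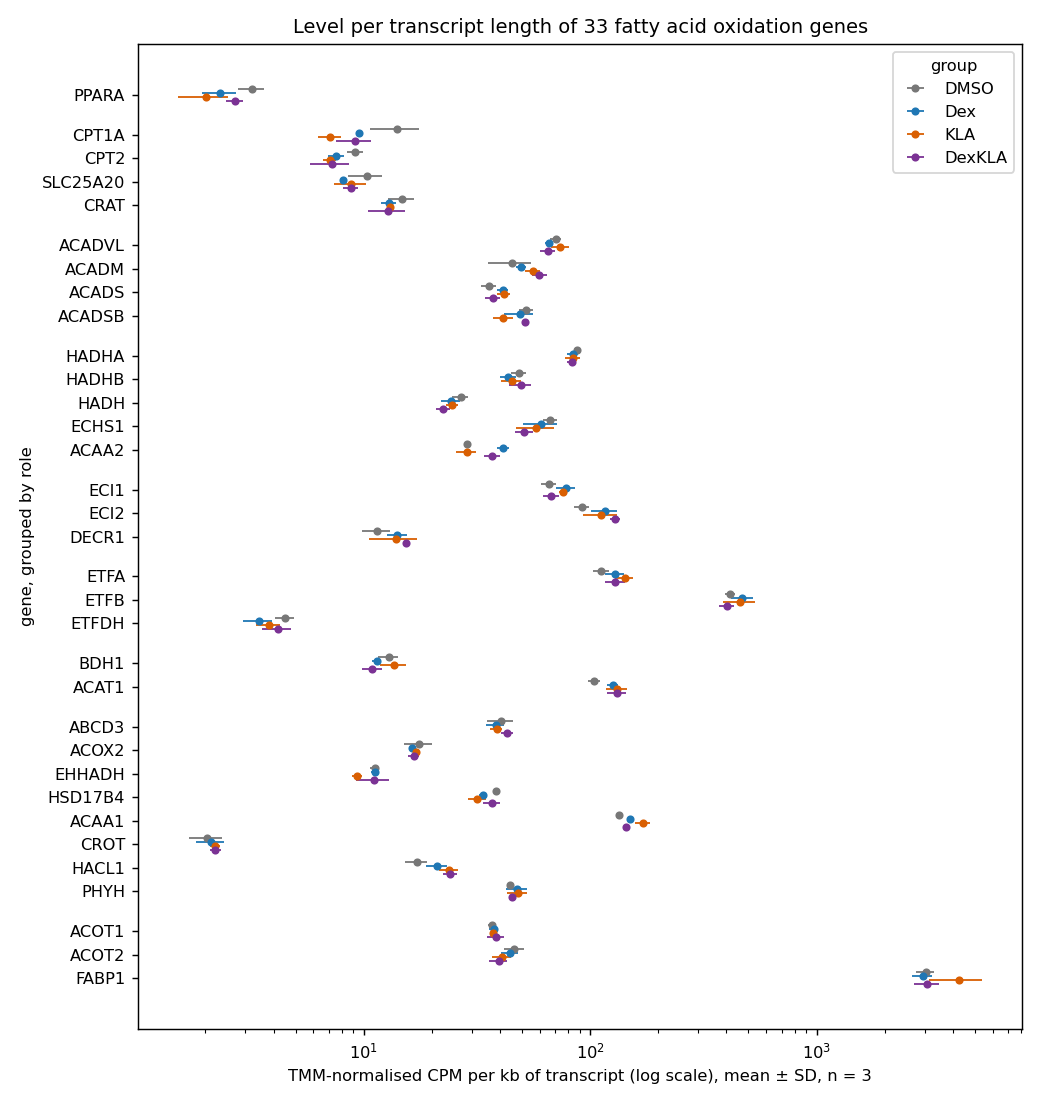
Level of each of the 33 tested genes in TMM-normalised CPM per kb of transcript on a log axis, grouped by role, with points for group means and bars for the SD over 3 libraries (grey DMSO, blue Dex, orange KLA, purple DexKLA). The genes span 2.14 to 3320 CPM per kb as means over all libraries, and the 4 groups of a gene mostly lie close together, with CPT1A spread the most (1.98 times between the highest and lowest group mean).

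Between 0 and 7 of the 33 genes were called per comparison, and no fitted change passed 1 on the log2 scale in size. Changes were tested in edgeR by quasi-likelihood, p-values were adjusted over all tested genes by the Benjamini-Hochberg method, and an adjusted p under 0.05 counted as a call. Calls below are those of this fit unless another tool or setting is named. In simulated counts, Dex versus DMSO called 26% of log2 changes of −0.5 and 30% of those of 0.5. A gene that was not called may therefore still have changed. With KLA alone, 7 of the 33 genes (21.2%) were called, against 13.7% of all tested genes. Of these, 5 rose (ACAA1, HACL1, FABP1, ACAT1 and ETFA) and 2 fell (CPT1A and PPARA), where 7.78% of all tested genes were called higher and 5.94% lower. With library size alone in place of TMM, which moved the median change of all genes in this comparison from −0.018 to −0.13, the split was 0 higher and 5 lower (ACADSB, CPT1A, CPT2, HSD17B4 and PPARA). With Dex alone 1 gene, ACAA2, rose, against 2.05% of all tested genes called and 1.22% called higher. With DexKLA, ECI2 and HACL1 rose and CPT1A fell, 3 of 33 genes (9.09%) against 4.22% of all (2.84% higher and 1.38% lower), and with library size alone CPT1A was the only call (0 higher and 1 lower). Averaged over cells lacking and receiving KLA, the effect of Dex (its mean effect) was called for 1 gene, again ACAA2, which rose, against 1.51% of all called and 0.873% called higher. In total, 9 genes were called in at least 1 comparison and 24 in none.

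The other comparisons called no gene of the pathway in edgeR. In DexKLA versus KLA, 0 of 33 genes were called against 0.653% of all. An unadjusted p under 0.05 was found for 8 of the 33 and for 1385 of all 13166. DESeq2 called 0 of the 33, against 0.881% of all. In DexKLA versus Dex, 0 were called among the 33 and 0% among all genes. An unadjusted p under 0.05 was found for 1 of the 33 and for 935 of all 13166. DESeq2 called 0 of the 33 and 0% of all. For KLA, the corresponding mean effect gave 0 calls among the 33 and 0% among all. An unadjusted p under 0.05 was found for 10 of the 33 and for 2532 of all 13166. DESeq2 called 3 of the 33 (ACADM, CPT1A and HACL1), against 4.15% of all. The interaction, which asks whether the effect of KLA differed without and with Dex, gave 0 calls against 0.038% of all. An unadjusted p under 0.05 was found for 10 of the 33 and for 2922 of all 13166. DESeq2 called 3 of the 33 (ACAA1, CPT1A and PPARA), against 5.04% of all. The comparisons with DMSO share their control libraries.

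The typical size of a change relative to DMSO was somewhat below that of all genes. The median absolute log2 change of the 33 genes was 0.16 under Dex, 0.21 under KLA and 0.13 under DexKLA relative to DMSO, and over all tested genes it was 0.193, 0.23 and 0.195. The median signed change of the 33 genes was −0.06, −0.01 and 0 in the same order. Groups whose 3 libraries lay all above or all below the 3 DMSO libraries were found for 14 of 33 genes with Dex (42.4%, against 28% of all tested genes), 13 under KLA (39.4% against 36.2%) and 9 under DexKLA (27.3% against 26.2%). The same separation held for 4 genes in DexKLA versus KLA (12.1% against 15.3%) and 1 in DexKLA versus Dex (3.03% against 12.7%).

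**Figure D2:**
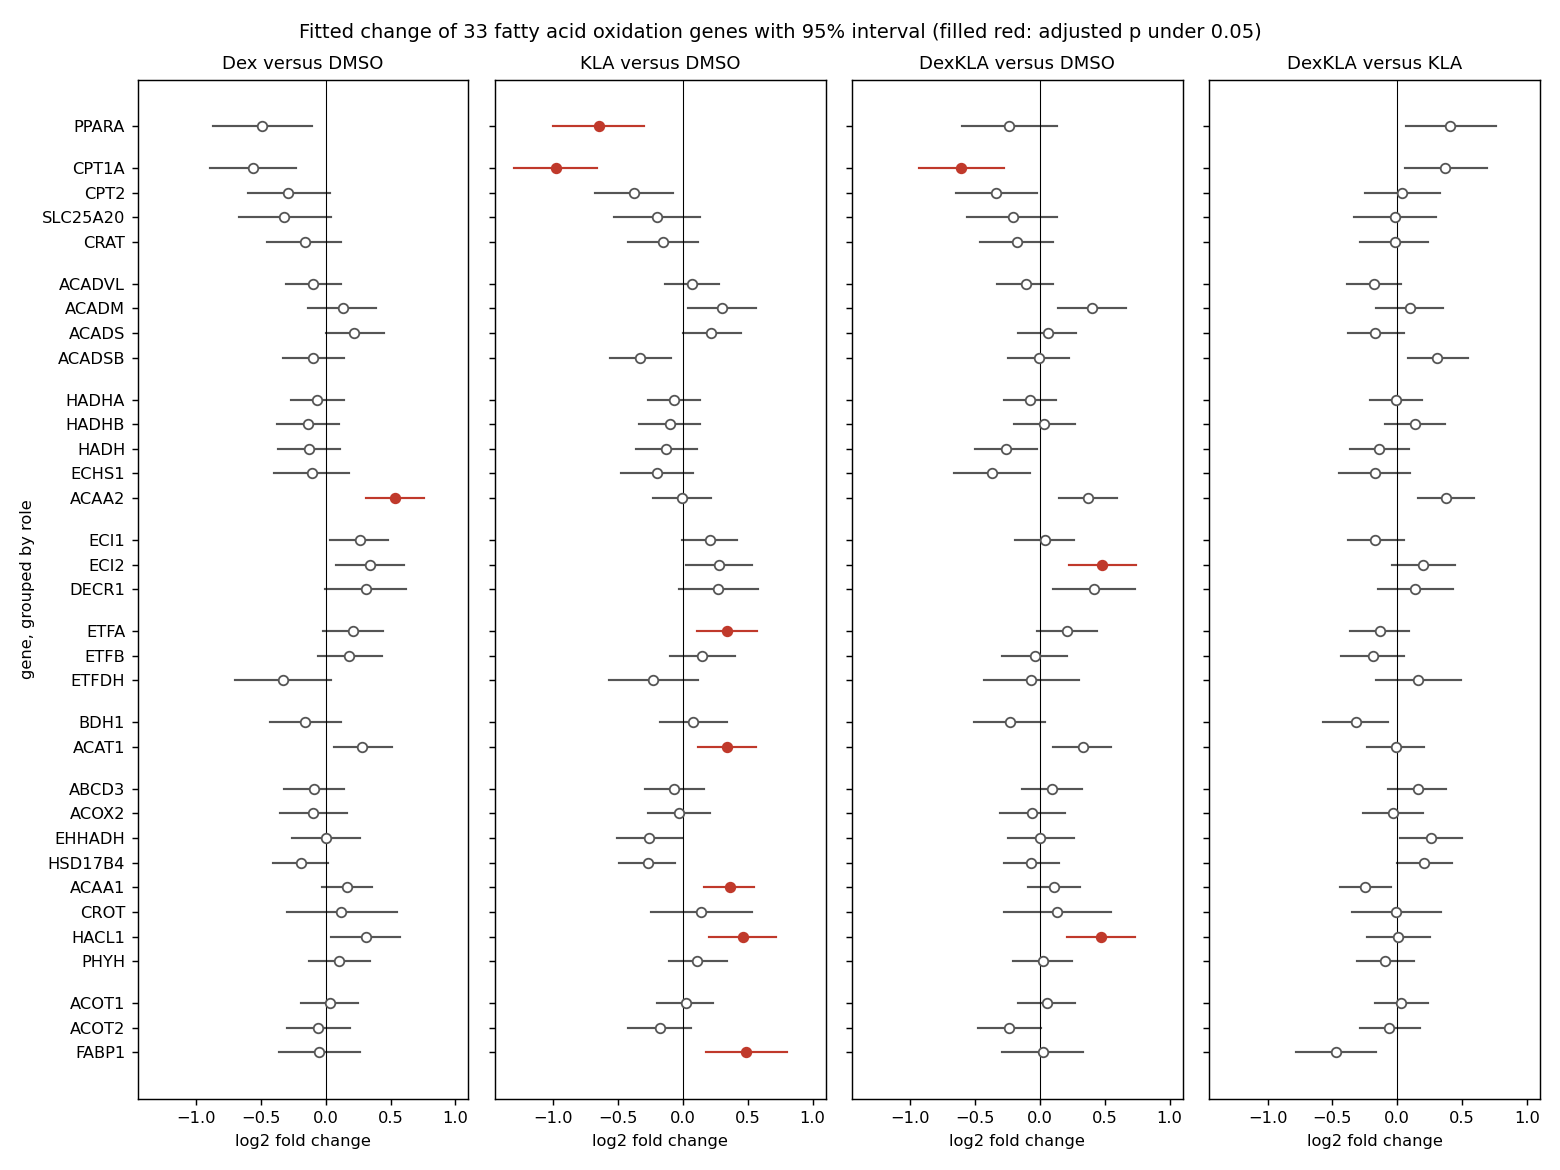
Fitted log2 fold change of the 33 tested genes with its 95% interval in Dex, KLA and DexKLA versus DMSO and in DexKLA versus KLA, grouped by role, with filled red points for an adjusted p under 0.05. The 4 carnitine shuttle genes lie left of 0 in all 3 comparisons with DMSO, CPT1A with KLA (−0.98) is the largest change, and DexKLA versus KLA holds no filled point.

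Transcript length moved with these changes. In KLA versus DMSO, Spearman's rho between log2 change and transcript length was −0.467 across all tested genes and −0.504 across the 33, and in DexKLA versus KLA it was 0.494 and 0.616. It was largest across all genes in the interaction, at 0.576, with 0.61 across the 33. These are descriptions across genes that share libraries. Little of the trend was seen in the mean effect of Dex, with −0.0931 across all genes and 0.108 across the 33. The median transcript length was 2280 bases for the 33 genes and 3130 for all tested genes. For most calls of the 33 genes below, and for the interactions given, the median of the 658 or 659 tested genes of like length stands beside the change.

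**Figure D3:**
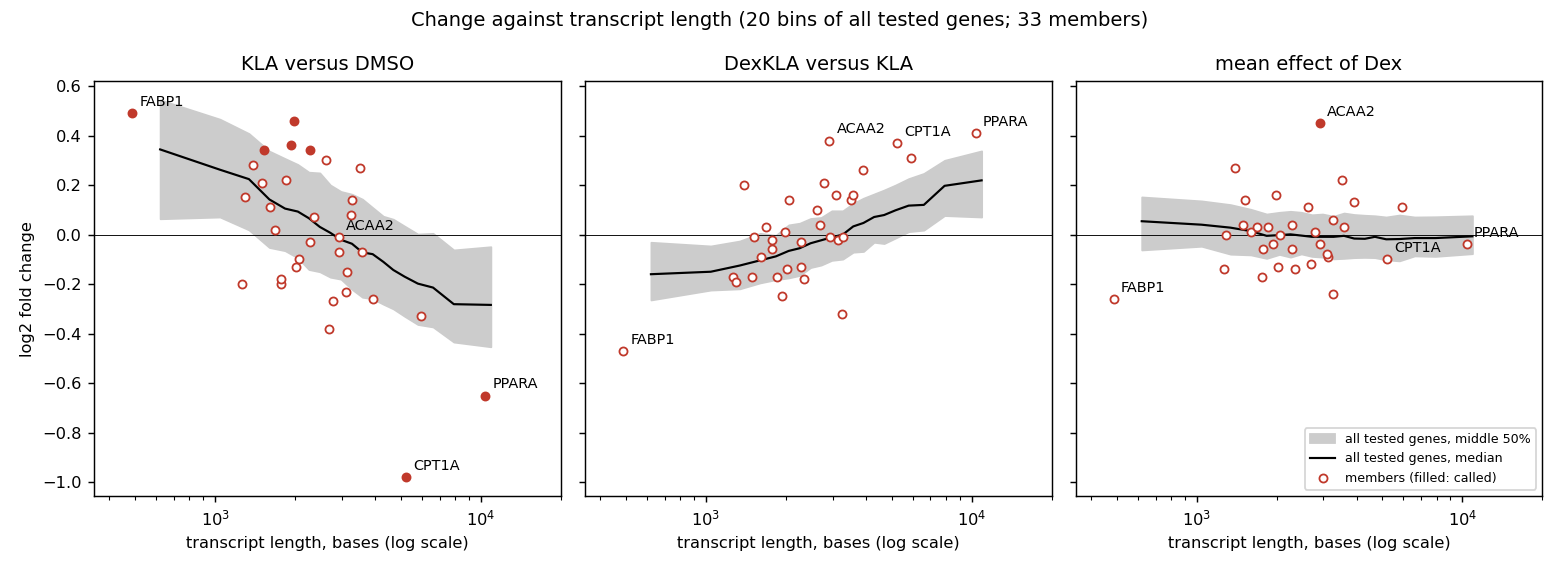
Log2 fold change against transcript length in bases (log axis) in KLA versus DMSO, DexKLA versus KLA and the mean effect of Dex, with the median (line) and the middle 50% (grey band) of all tested genes in 20 bins of length and the 33 pathway genes as points (filled when called). In KLA versus DMSO the line falls with length and FABP1 (0.49) lies at its short end, while CPT1A (−0.98) and PPARA (−0.65) lie below it, and ACAA2 (0.45) stands above a nearly flat line in the mean effect of Dex.

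Among the regulators, PPARA, the gene of the receptor named above (hg38 chromosome 22, 46150795 to 46243756, plus strand), was lower with KLA. Its levels were 37.2, 28.7 and 33.6 CPM in DMSO replicates 1 to 3, 27.7, 19.7 and 25.1 under Dex, 22.9, 24.9 and 15 under KLA, and 25.4, 29.9 and 28.9 under DexKLA. All Dex and all KLA libraries lay below all DMSO libraries, and the DexKLA libraries overlapped them. PPARA fell by 0.65 ± 0.17 on the log2 scale with KLA (fitted value ± standard error, edgeR adjusted p = 0.0192), where genes of like length, for its transcript of 10364 bases, had a median of −0.28. With Dex the change was −0.49 ± 0.18 (adjusted p = 0.132, like-length median −0.24) and with DexKLA −0.24 ± 0.18 (adjusted p = 0.457, like-length median −0.05). The interaction was 0.90 ± 0.25 (adjusted p = 0.063), so that the difference between the effect of KLA without and with Dex did not pass the threshold. Genes of like length had a median interaction of 0.46. The call in KLA versus DMSO ended without DMSO replicate 1, DMSO replicate 3 or KLA replicate 3 (log2 −0.64 to −0.46, adjusted p 0.0561 to 0.105), with the depth class of the library (deeper or shallower) as a covariate (−0.37, adjusted p = 0.452), and when each library's length trend was removed (−0.43, adjusted p = 0.0513).

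PDK4, the pyruvate dehydrogenase kinase that spares glucose during fasting and a well-known PPAR alpha and glucocorticoid target in other settings (chromosome 7, 95583501 to 95596516, minus strand), was at or near 0. It had 0 counts in 9 of the 12 libraries after rounding, 1 in Dex replicate 1, 2 in KLA replicate 2 and 2 in DexKLA replicate 1. In those 9 libraries a count of 0 allows up to 0.161 to 0.904 CPM, taking 3 counts as the limit, which covers counting error only. No difference between groups was detectable at this depth, and no fold change is given.

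The carnitine shuttle carries long acyl chains across the inner mitochondrial membrane. Its 4 genes, grouped with earlier results known, all had negative log2 changes with Dex (median −0.30), KLA (−0.29) and DexKLA (−0.27) relative to DMSO. This sign held for all 4 in every alternative that was run. Without DMSO replicate 1 the smallest changes were −0.07, −0.06 and −0.08 in the same order. Other carnitine acyltransferases did not share the sign. CROT, grouped with the peroxisomal genes, had 0.12, 0.14 and 0.13. CPT1B, outside the 34 genes, had means of 7.26 CPM under DMSO and 7.64, 7.84 and 7.97 with treatment. Of the 4 shuttle genes, only CPT1A was called by edgeR with the settings used throughout. CPT1A, the liver form of carnitine palmitoyltransferase and the rate-limiting gate of the pathway (chromosome 11, 68754883 to 68841916, minus strand), had 83.9, 52.9 and 84 CPM in DMSO replicates 1 to 3, 50.5, 48.2 and 50.1 under Dex, 40.8, 32.1 and 38.5 under KLA, and 40, 46.9 and 56.5 under DexKLA. Every Dex and KLA library lay below every DMSO library, and DexKLA replicate 3 lay above DMSO replicate 2, which was the lowest of its group. The group means were 73.6 ± 17.9 CPM under DMSO, 49.6 ± 1.21 under Dex, 37.1 ± 4.48 under KLA and 47.8 ± 8.29 under DexKLA.

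CPT1A fell by 0.98 ± 0.15 on the log2 scale with KLA (0.507 times the DMSO level, edgeR adjusted p = 0.00452), where genes of like length had a median of −0.17. It fell by 0.61 ± 0.16 under DexKLA (adjusted p = 0.0349, like-length median −0.08). With Dex alone the change was −0.56 ± 0.16 (adjusted p = 0.0593, like-length median −0.13), and DESeq2 called it (adjusted p = 0.0266). The interaction was 0.94 ± 0.22 (adjusted p = 0.0544, like-length median 0.23). With library size alone, which moved the median interaction of all genes to 0.129, it was called for CPT1A (1.06, adjusted p = 0.0457) and for PPARA (1.01, adjusted p = 0.048). The KLA call ended without DMSO replicate 1 (−0.88, adjusted p = 0.0711) and with the depth class of the library as a covariate (−0.97, adjusted p = 0.148). The DexKLA call ended with that covariate (−0.60, adjusted p = 0.124) and without DMSO replicate 1 or 3, Dex replicate 3 or DexKLA replicate 1 or 2 (−0.61 to −0.49, adjusted p 0.0541 to 0.231).

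CPT2, the partner enzyme on the inner side of the membrane, had 24.7 ± 1.89 CPM under DMSO, 20.3 ± 1.63 under Dex, 19.1 ± 1.26 under KLA and 19.4 ± 3.79 under DexKLA. Its change with KLA was −0.38 ± 0.14 (edgeR adjusted p = 0.0773), with no overlap between KLA and DMSO libraries. CPT2 was called with KLA when library size alone was the scaling (−0.49, adjusted p = 0.038) and, without DexKLA replicate 3, with KLA (−0.38, adjusted p = 0.0411) and with DexKLA (−0.53, adjusted p = 0.0293). AL606760.2 on the opposite strand overlaps 1151 bases of CPT2 exons. SLC25A20, the carnitine-acylcarnitine carrier, went from 18.1 ± 3.17 CPM under DMSO to 14.3 ± 0.393, 15.6 ± 2.51 and 15.5 ± 1.15 under Dex, KLA and DexKLA, and CRAT, the carnitine acetyltransferase, from 45.9 ± 5.96 to 40.5 ± 2.97, 41.1 ± 1.16 and 40.1 ± 7.36. Neither was called, and the KLA and DexKLA libraries of both overlapped those with DMSO. Per length, the ratio of CPT1A to CPT2 was 1.55 ± 0.45 under DMSO, 1.27 ± 0.12 under Dex, 1.01 ± 0.15 under KLA and 1.27 ± 0.055 under DexKLA.

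The acyl-CoA dehydrogenases open each turn of the cycle, and none of the 4 was called in any comparison by edgeR with the settings used throughout. Some alternatives called ACADM or ACADSB. ACADVL, for very long chains, stood at 165 ± 9.1, 154 ± 4.72, 173 ± 16.2 and 152 ± 11.9 CPM under DMSO, Dex, KLA and DexKLA. ACADM, for medium chains, stood at 118 ± 25.3, 130 ± 6.21, 146 ± 10.7 and 156 ± 11.8 CPM, and its DexKLA libraries all lay above those with DMSO (log2 0.40 ± 0.13, edgeR adjusted p = 0.0733). DESeq2 called ACADM in DexKLA versus DMSO (0.41, adjusted p = 0.0319) and in the mean effect of KLA (0.29, adjusted p = 0.038), and edgeR with no filter on low counts called both (adjusted p = 0.0234 and 0.0239). Without DexKLA replicate 3 or KLA replicate 3, ACADM was called in DexKLA versus DMSO (adjusted p = 0.0355 and 0.0381). ACADS, for short chains, had 65.7 ± 4.89, 76.2 ± 4.38, 76.6 ± 5.29 and 68.5 ± 5.18 CPM. ACADSB, for short branched chains from isoleucine, had 308 ± 21.8, 289 ± 42.8, 246 ± 24.5 and 305 ± 8.6 CPM. Its KLA libraries lay below all DMSO and all DexKLA libraries, and the changes were −0.33 ± 0.11 under KLA (edgeR adjusted p = 0.0541) and 0.31 ± 0.11 in DexKLA versus KLA (adjusted p = 0.321). ACADSB was called lower with KLA by DESeq2 (−0.32, adjusted p = 0.0382) and with library size alone (−0.44, adjusted p = 0.0163), and also without Dex replicate 1 or DexKLA replicate 3 (adjusted p = 0.0481 and 0.0402).

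ACAA2, the mitochondrial thiolase that cleaves acetyl-CoA from the shortened chain, rose with Dex (chromosome 18, 49782164 to 49813533, minus strand). The counted transcript has 2914 bases. The 250 bases upstream of its start (GRCh38.p14 chr18:49813534-49813783, minus strand, RefSeq promoter table) are shown because this gene held the steadiest Dex call of the pathway. They are printed 5′ to 3′ with nothing in capitals, since none of the motifs searched below was found in them, and 63.6% of the bases are G or C.

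ACAA2 upstream: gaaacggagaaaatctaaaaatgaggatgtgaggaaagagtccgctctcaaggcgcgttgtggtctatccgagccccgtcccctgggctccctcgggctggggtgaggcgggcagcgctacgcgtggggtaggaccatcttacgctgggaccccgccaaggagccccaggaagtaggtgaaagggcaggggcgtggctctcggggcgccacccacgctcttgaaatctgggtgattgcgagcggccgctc

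ACAA2 had 81.9, 84 and 84.3 CPM in DMSO replicates 1 to 3 and 112, 125 and 124 under Dex. It had 76.9, 79.4 and 93 CPM with KLA and 118, 102 and 103 under DexKLA. All 6 libraries with Dex lay above all 6 without, at a lowest value of 102 CPM against a highest of 93. Its mean effect of Dex was 0.45 ± 0.07 on the log2 scale (1.37-fold, edgeR adjusted p = 0.000938), where genes of like length had a median of −0.01, and it was called in all 22 alternatives. Dex alone gave 0.53 ± 0.11 (1.45-fold, adjusted p = 0.0124), Dex on top of KLA gave 0.38 ± 0.10 (adjusted p = 0.136), and KLA alone gave −0.01 ± 0.11. DexKLA versus DMSO missed the threshold at 0.37 ± 0.11 (adjusted p = 0.0529), and DESeq2 called it (adjusted p = 0.0186). The Dex versus DMSO call ended without any 1 of the DMSO replicates or Dex replicates 2 or 3 (log2 0.50 to 0.54, adjusted p 0.0514 to 0.0897). Of the 50-base words of its GENCODE transcript, 20.6% also occur in transcripts of other genes, among them the overlapping same-strand AC090227.1, so some reads cannot be assigned to ACAA2 alone.

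The remaining enzymes of the cycle were called in no comparison by edgeR with the settings used throughout. HADHA and HADHB encode the alpha and beta subunits of the trifunctional protein, which carries out the later steps on long chains. They lie head to head on chromosome 2, HADHA from 26190635 to 26244632 on the minus strand and HADHB from 26244939 to 26290465 on the plus strand, with 306 bases between their starts. The 250 bases upstream of HADHB (GRCh38.p14 chr2:26244689-26244938, plus strand, 69.2% G or C) are shown because 194 of them also lie in the 250 bases upstream of HADHA, so that both subunits share this stretch.

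HADHB upstream: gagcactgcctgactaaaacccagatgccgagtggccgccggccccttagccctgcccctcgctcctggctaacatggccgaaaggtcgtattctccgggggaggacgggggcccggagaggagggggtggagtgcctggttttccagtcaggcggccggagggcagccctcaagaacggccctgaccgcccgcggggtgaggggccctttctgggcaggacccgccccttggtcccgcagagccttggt

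HADHA had 257 ± 7.79, 245 ± 13.5, 244 ± 18.2 and 242 ± 10.7 CPM under DMSO, Dex, KLA and DexKLA, and HADHB had 99.6 ± 7.45, 89.7 ± 7.09, 92.8 ± 9.35 and 102 ± 11.3. Per length, the ratio of HADHA to HADHB stayed between 1.61 and 2.08 over the 12 libraries. HADH, the short-chain hydroxyacyl-CoA dehydrogenase, had 54.3 ± 4.43, 49.2 ± 4.86, 49.8 ± 3.19 and 45.4 ± 3.11 CPM. ECHS1, the short-chain enoyl-CoA hydratase, had 84.4 ± 6.21, 77 ± 13, 73.4 ± 13.9 and 64.8 ± 5.87 CPM. Both had all DexKLA libraries below all DMSO libraries without a call (HADH −0.26, edgeR adjusted p = 0.195, and ECHS1 −0.37, adjusted p = 0.125). With the length trend removed, ECHS1 was called lower with KLA (−0.42, adjusted p = 0.0332) and with DexKLA (−0.46, adjusted p = 0.0265).

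The auxiliary enzymes handle the double bonds of unsaturated chains. ECI1, ECI2 and DECR1 all had positive log2 changes with Dex (median 0.31), KLA (0.27) and DexKLA (0.42) relative to DMSO. The sign of ECI1 under DexKLA (0.04) turned with library size alone as the scaling (−0.07), with the length trend removed (−0.04), with the depth class as a covariate (−0.05) and without DMSO replicate 3 (−0.02) or DexKLA replicate 1 (−0.03). ECI2, an enoyl-CoA isomerase of mitochondria and peroxisomes (chromosome 6, 4115693 to 4135597, minus strand), was the only one called. It had 124, 139 and 121 CPM in DMSO replicates 1 to 3, 145, 185 and 155 under Dex, 136, 144 and 186 under KLA, and 188, 181 and 169 under DexKLA. All Dex and all DexKLA libraries lay above all DMSO libraries, and the KLA libraries overlapped them.

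ECI2 rose by 0.48 ± 0.12 on the log2 scale with DexKLA (1.39-fold, edgeR adjusted p = 0.0349, like-length median 0.09). The call ended without any 1 of the DMSO replicates, Dex replicate 3 or DexKLA replicate 1 or 2 (0.44 to 0.54, adjusted p 0.0547 to 0.185), with library size alone, and with the depth class as a covariate (0.37 to 0.39, adjusted p 0.0757 to 0.178). C6orf201 on the opposite strand overlaps 1242 bases of the ECI2 exons annotated in GENCODE, and the strand of the libraries is not given in the sources used here, so reads of both genes cannot be told apart. C6orf201 was counted at 47.6 ± 7.4, 54.4 ± 7.31, 50.6 ± 6.9 and 58.3 ± 5.01 plain CPM under DMSO, Dex, KLA and DexKLA, an order like that of ECI2. ECI1, the mitochondrial isomerase, had 98.4 ± 7.72, 117 ± 11.1, 113 ± 4.18 and 101 ± 8.04 CPM, and DECR1, the dienoyl-CoA reductase, had 40 ± 5.67, 49.5 ± 4.88, 48.8 ± 11.7 and 53.7 ± 1.15.

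Of the electron transfer genes, ETFA and ETFB encode the subunits of the flavoprotein that takes electrons from the dehydrogenases, and ETFDH encodes the membrane enzyme that passes them to ubiquinone. ETFA (chromosome 15, 76215353 to 76311469, minus strand) had 238, 248 and 276 CPM in DMSO replicates 1 to 3, 260, 310 and 312 under Dex, 307, 305 and 355 under KLA, and 311, 312 and 260 under DexKLA. The KLA libraries lay above all DMSO libraries, and the Dex and DexKLA libraries overlapped them. ETFA rose by 0.34 ± 0.11 under KLA (1.27-fold, edgeR adjusted p = 0.0433, like-length median 0.07). This was the least steady call of the pathway, held in 10 of 22 alternatives. It ended without any 1 of the DMSO replicates, Dex replicate 3, KLA replicate 1 or 3, or DexKLA replicate 2 (0.27 to 0.41, adjusted p 0.0507 to 0.161). ETFB had 536 ± 27.7, 608 ± 68.3, 595 ± 94 and 522 ± 39.6 CPM and ETFDH 13.9 ± 1.31, 10.7 ± 1.57, 11.8 ± 1.39 and 12.9 ± 1.94, with no call. Per length, ETFB exceeded ETFA 2.88 to 4.19 times, and ETFDH lay far below both. The longest coding GENCODE transcript of ETFB holds 3502 words of 50 bases, of which 12.3% also occur in other genes. The counted ETFB transcript is shorter, at 1294 bases, and its own share was not computed. AC008750.8 on the same strand overlaps 337 bases of ETFB exons. PPID on the opposite strand overlaps 490 bases of ETFDH exons. It was counted at 30.8 ± 2.57, 20.6 ± 4.17, 22.4 ± 5.09 and 21.8 ± 4.27 plain CPM under DMSO, Dex, KLA and DexKLA, also lowest with Dex.

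Ketone body metabolism was represented by ACAT1, the mitochondrial acetoacetyl-CoA thiolase, and BDH1, which interconverts acetoacetate and hydroxybutyrate. ACAT1 (chromosome 11, 108121567 to 108147601, plus strand) had 147, 167 and 160 CPM in DMSO replicates 1 to 3, 184, 204 and 189 under Dex, 190, 186 and 225 under KLA, and 215, 203 and 177 under DexKLA. Every treated library lay above every DMSO library. The rise with KLA was called (0.34 ± 0.11, 1.27-fold, edgeR adjusted p = 0.0398, like-length median 0.14), and the changes with Dex (0.28 ± 0.11, adjusted p = 0.147) and DexKLA (0.33 ± 0.11, adjusted p = 0.0857) were not. The KLA call ended without any 1 of the DMSO replicates, Dex replicate 3, KLA replicate 3 or DexKLA replicate 2 (0.25 to 0.38, adjusted p 0.0525 to 0.153), and with the length trend removed the change was 0.16. BDH1 had 41.9 ± 4.23, 37.2 ± 1.62, 44.3 ± 5.84 and 35.3 ± 3.64 CPM with no call, and its row lists 2 copies in the genome. Of the ACAT1 exons, 112 and 212 bases overlap AP002433.1 and AP002433.2 on the opposite strand.

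Among the 8 peroxisomal genes, ACAA1 and HACL1 rose. ACAA1, the peroxisomal thiolase (chromosome 3, 38122710 to 38137242, minus strand, counted on a noncoding RefSeq transcript), had 256, 265 and 255 CPM in DMSO replicates 1 to 3, 286, 301 and 283 under Dex, 326, 309 and 358 under KLA, and 286, 281 and 270 under DexKLA. Every treated library lay above every DMSO library, and the KLA libraries lay above all others. ACAA1 rose by 0.36 ± 0.09 under KLA (1.28-fold, edgeR adjusted p = 0.0207, like-length median 0.10), and its interaction was −0.41 ± 0.13 (adjusted p = 0.0876, like-length median −0.18). The call ended without any 1 of the DMSO replicates or KLA replicate 3 (0.30 to 0.37, adjusted p 0.0522 to 0.0809) and with the length trend removed, library size alone or the depth class as a covariate (0.24 to 0.32, adjusted p 0.0675 to 0.271). DLEC1 on the opposite strand overlaps 1316 bases of ACAA1 exons and was counted at 73.9 ± 1.5, 76.3 ± 5.5, 89.8 ± 11.9 and 72.7 ± 2.18 plain CPM, also highest with KLA.

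HACL1, the lyase that removes formyl-CoA from branched and hydroxylated chains (chromosome 3, 15560701 to 15601569, minus strand), had 29.8, 35.5 and 37.1 CPM in DMSO replicates 1 to 3, 41.3, 46.7 and 38 under Dex, 46, 43.5 and 52.2 under KLA, and 47.2, 51.5 and 44.9 under DexKLA. Again every treated library lay above every DMSO library. It rose by 0.46 ± 0.12 under KLA (1.38-fold, edgeR adjusted p = 0.0208, like-length median 0.09) and by 0.47 ± 0.13 under DexKLA (1.39-fold, adjusted p = 0.0409, like-length median 0.03). The KLA call ended without DMSO replicate 1 or 2 or KLA replicate 3 (0.38 to 0.49, adjusted p 0.0514 to 0.107) and with the length trend removed, library size alone or the depth class as a covariate (0.35 to 0.42, adjusted p 0.0541 to 0.259). The DexKLA call ended without any 1 of the DMSO replicates, Dex replicate 3 or DexKLA replicate 1 or 2 (0.39 to 0.53, adjusted p 0.0586 to 0.232) and in 3 of the other alternatives (0.37 to 0.48, adjusted p 0.0588 to 0.146). BTD on the opposite strand overlaps 188 bases of HACL1 exons and did not follow its order, at 38.8 ± 0.873, 33.8 ± 4.82, 34.6 ± 1.67 and 34.1 ± 1.51 plain CPM.

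The other 6 peroxisomal genes were not called. HSD17B4, the bifunctional enzyme for branched chains, had 107 ± 2.06, 93.4 ± 3.37, 88.5 ± 7.85 and 102 ± 9.05 CPM under DMSO, Dex, KLA and DexKLA, and its change with KLA was −0.27 ± 0.10 (edgeR adjusted p = 0.0748). EHHADH, the bifunctional enzyme for straight chains and a textbook PPAR alpha target, had 44 ± 2.03, 44 ± 1.77, 36.7 ± 1.92 and 43.5 ± 7.08 CPM. ABCD3, a peroxisomal acyl-CoA transporter, had 145 ± 18.9, 137 ± 12.1, 138 ± 8.3 and 154 ± 9.33. ACOX2, the oxidase for branched chains and bile acid intermediates, had 40 ± 5.56, 37.3 ± 1.02, 39 ± 0.47 and 38 ± 2.13 CPM. PHYH, the phytanoyl-CoA hydroxylase, had 71 ± 2.33, 76.2 ± 7.91, 76.8 ± 7.79 and 72.2 ± 2.19. CROT had 6.63 ± 1.09, 6.94 ± 0.966, 7.19 ± 0.355 and 7.22 ± 0.409 CPM.

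FABP1, which binds fatty acids in the hepatocyte cytosol, was the most abundant of the 34 genes (chromosome 2, 88122989 to 88128062, minus strand) and its transcript of 488 bases was also the shortest. The 250 bases upstream of its start (GRCh38.p14 chr2:88128063-88128312, minus strand, 48.0% G or C) are shown with a nuclear receptor motif in capitals, since FABP1 was the only gene whose promoter held it among the 27 of the 34 with a promoter in the table. The letters in capitals, TGACCT, are AGGTCA read on the other strand, and begin 68 bases before the start.

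FABP1 upstream: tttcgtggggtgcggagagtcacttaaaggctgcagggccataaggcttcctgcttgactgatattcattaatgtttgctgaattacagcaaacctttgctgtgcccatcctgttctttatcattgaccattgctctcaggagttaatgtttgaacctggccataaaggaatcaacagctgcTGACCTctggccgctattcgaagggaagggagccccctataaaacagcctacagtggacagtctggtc

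RefSeq promoters, from 250 bases before to 50 after the start, were matched by symbol for 27 of the 34 genes, and 27305 promoters were in the table. On both strands, AGGTCA was found in 3806 of them (13.9%) and in 1 of the 27, FABP1, which holds a second copy 12 bases after the start. A pair of such sites, AGGNCA followed by any 1 base and AGGNCA again, the form to which PPAR alpha binds, was found in 84 promoters (0.308%) and in 0 of the 27. Only exact matches were counted. In FABP1 the stretch from the marked site on, TGACCTctggccg, differs in 1 letter from this pair read on the other strand. Sites with such a mismatch were not searched. The pattern of glucocorticoid receptor sites, GNACA and TGTNC with 3 bases between, was found in 106 (0.388%) and in 0 of the 27. These are matches of letters in a short window, and the longer motifs are rare in promoters as a whole.

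FABP1 had 1330, 1530 and 1580 CPM in DMSO replicates 1 to 3, 1280, 1570 and 1440 under Dex, 1890, 1640 and 2700 under KLA, and 1690, 1490 and 1310 under DexKLA. The KLA libraries lay above all DMSO and Dex libraries, with KLA replicate 3 far above the rest, and KLA replicate 2 lay below DexKLA replicate 1. FABP1 rose by 0.49 ± 0.15 under KLA (1.40-fold, edgeR adjusted p = 0.0345), where genes of like length had a median of 0.34. Without KLA replicate 3 the change was 0.26 (adjusted p = 0.214), and with the length trend removed it was 0.12 (adjusted p = 0.515). The call also ended without any 1 of the DMSO replicates or Dex replicate 3 (adjusted p from 0.0518). In DexKLA versus KLA the change was −0.47 ± 0.15 (adjusted p = 0.24), against a like-length median of −0.16. KLA replicate 3 also had the most negative length trend of the KLA libraries (rho −0.526), and the part of this trend in the FABP1 values was not tested beyond its removal.

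ACOT1 and ACOT2, which split acyl-CoA in the cytosol and the mitochondria, are close paralogs. They share 54.6% (of ACOT1) and 52.6% (of ACOT2) of their 50-base words, so their reads may have been split between them and both values are uncertain. ACOT1 had 62 ± 2.65, 63.2 ± 2.95, 62.8 ± 1.96 and 64.3 ± 5.36 CPM under DMSO, Dex, KLA and DexKLA, the narrowest range of group means of the 33 genes (1.04 times). ACOT2 had 82 ± 8.17, 78.6 ± 6.88, 72.3 ± 7.22 and 69.8 ± 6.26 CPM. Neither was called.

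**Figure D4:**
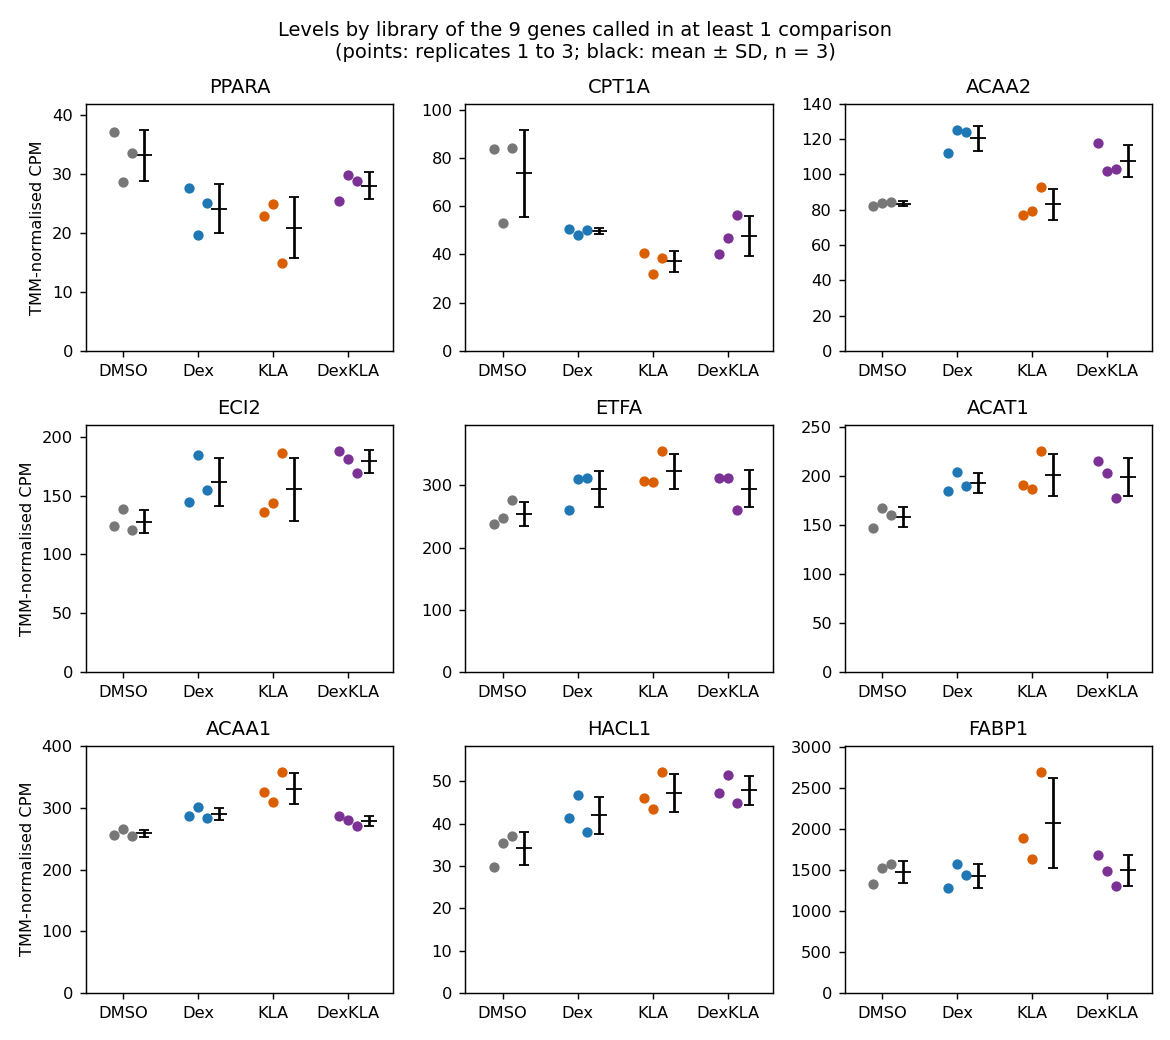
TMM-normalised CPM of the 9 genes called in at least 1 comparison, with a point per library and the mean ± SD over 3 libraries in black, for DMSO, Dex, KLA and DexKLA. ACAA2 separates the 6 libraries with Dex from the 6 without, CPT1A is lowest with KLA (32.1 to 40.8 CPM), and in FABP1 KLA replicate 3 (2700 CPM) stands apart from the other 2 KLA libraries.

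Further genes of the pathway were read from a list of 82 others that handle uptake, activation, oxidation, ketone bodies, peroxisomes and their regulation, of which 73 were tested. Of these, 7 were called with Dex (4 higher and 3 lower, 9.59%), 14 under KLA (8 higher and 6 lower, 19.2%) and 10 under DexKLA (7 higher and 3 lower, 13.7%), against the 2.05%, 13.7% and 4.22% of all tested genes given above. In DexKLA versus KLA 1 was called, CD36, and in the mean effect of Dex 2 were, CD36 higher and ACSL3 lower. The other 3 comparisons called none in edgeR. An unadjusted p under 0.05 was found for 5 of the 73 in DexKLA versus Dex, 19 in the mean effect of KLA and 22 in the interaction. Among all 13166 tested genes it was found for 935, 2532 and 2922.

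CD36, a fatty acid uptake receptor, rose with Dex in the absence and in the presence of KLA. It had 7.32, 7.71 and 11.1 CPM in DMSO replicates 1 to 3, 15.5, 15.6 and 16.5 under Dex, 11.1, 13 and 11.9 under KLA, and 21.6, 19 and 22.1 under DexKLA. All 6 libraries with Dex lay above all 6 without. The change was 0.85 ± 0.18 under Dex (edgeR adjusted p = 0.0137), 0.81 ± 0.14 in DexKLA versus KLA (adjusted p = 0.00385) and 1.27 ± 0.17 under DexKLA (adjusted p = 0.000203), and the mean effect of Dex, 0.83 ± 0.11 (adjusted p = 0.00011), was called in all 22 alternatives. The Dex versus DMSO call ended without DMSO replicate 1 or 2 or Dex replicate 2 or 3 (adjusted p up to 0.095). The DexKLA versus KLA call ended when every library was thinned to the shallowest (adjusted p = 0.27).

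The activation step moved both ways. ACSL3, a long-chain acyl-CoA synthetase of the endoplasmic reticulum and lipid droplets, was lower with each treatment, at 589 ± 65.2 CPM under DMSO and 379 ± 26.5, 422 ± 32.4 and 410 ± 27.6 under Dex, KLA and DexKLA. ACSM3, a medium-chain synthetase, was higher with each (28.5 ± 2.26 CPM, then 44.5 ± 3.05, 44 ± 3.18 and 42.6 ± 8.1, log2 0.62 ± 0.14 under KLA, edgeR adjusted p = 0.0109). DBI, the acyl-CoA binding protein, was higher with KLA (514 ± 6.12 to 764 ± 101 CPM, 0.57 ± 0.13, adjusted p = 0.0109) and DexKLA (697 ± 125). The thioesterases ACOT13 (57.3 ± 7.42 to 88.8 ± 14.4 CPM, 0.63 ± 0.13, adjusted p = 0.0105) and ACOT8 (29.5 ± 2.47 to 41 ± 1.79, 0.48 ± 0.12, adjusted p = 0.0158) and the methylmalonyl-CoA epimerase MCEE (21.3 ± 3.16 to 32.6 ± 4.09, 0.62 ± 0.14, adjusted p = 0.0113) were higher with KLA. CREB3L3, a liver transcription factor that acts with PPAR alpha in fasting, was lower with all 3 treatments, at 19.4 ± 5.48 CPM under DMSO, 11.4 ± 1.03 under Dex, 11.5 ± 1.78 under KLA (−0.72 ± 0.18, adjusted p = 0.015) and 10.4 ± 1.18 under DexKLA (−0.88 ± 0.19, adjusted p = 0.0157). DMSO replicate 1, with 25.6 CPM of CREB3L3 against 15.4 and 17 in the other DMSO libraries, was the highest of its group.

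The KLA calls of these 7 genes all ended without DMSO replicate 1 and with the depth class as a covariate (adjusted p up to 0.268 over the alternatives). In those 2 settings only 0.0364% and 0.0304% of all tested genes were called with KLA. The calls of the 7 genes with Dex or DexKLA held in 8 to 22 of the 22 alternatives. With the length trend removed, DBI, MCEE and ACOT8 were no longer called with KLA (lowest log2 0.24, 0.32 and 0.25 over the alternatives).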

How the data were processed

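RNA from 12 HepG2 libraries was analysed. The authors deposited expected counts for 70507 RefSeq transcripts, in steps of 0.5, and their origin is not given in the sources used here. Per the submitters' processing notes, Trimmomatic, BWA 0.7.17 and HOMER 4.10 were used with hg38, with no role stated. Values that were not whole (32.6% to 36.4% per library) were rounded. The 406 transcripts without a symbol (1.71% to 2.55% of totals) were left out, and the transcript with the highest total was kept for each symbol (12552 symbols have several).

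Counts were filtered (filterByExpr, minimum count 10), scaled by TMM and fitted in edgeR 4.0.16 (R 4.3.3, the package data.table, version 1.17.8) with 1 mean per group over all 12 libraries and 8 residual degrees of freedom, and the scripts were tested on simulated data. The 8 comparisons were each treatment versus DMSO, the combined treatment versus KLA and versus Dex, the mean effects of Dex and of KLA, and the interaction. Adjusted p-values cover all 13166 tested genes of a comparison. Levels are TMM-normalised CPM, and genes that were not tested are given in plain CPM. Gene overlaps and 50-base words come from GENCODE v29, promoters from RefSeq GRCh38.p14.

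Genes called in at least 1 comparison, PPARA, CPT1A and PDK4 are given in every library, and up to 8 called genes of the wider list are named by smallest adjusted p. The members, lists, naming rule and tests were chosen with earlier results of these data known. Alternatives were DESeq2 1.42.0 size factors, library size alone, the DESeq2 test, no filter, 50 counts in 3 libraries, the replicate number as a block, the longest transcript, removal of each library's length trend (loess span 0.3), depth class (the 6 deeper or 6 shallower libraries) as a covariate, thinning to the shallowest library, and leaving out each library. Some genes of the wider list are counted but not reported here by name.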

Additional observations from a re-analysis of the deposited data

How the results depend on the processing

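Of the 12 calls of pathway genes, each tried under 22 alternatives (264 values), 185 kept their call, 79 lost it and 0 changed sign. For ACAA2 the mean effect of Dex was called in all 22, CPT1A with KLA in 20, and the others in 10 to 17. Leaving out DMSO replicate 1 ended 11 of the 12 calls. Calls over all tested genes also dropped without it, from 13.7% to 0.0364% in KLA versus DMSO. They went from 4.22% to 0.349% in DexKLA versus DMSO and from 2.05% to 0.48% in Dex versus DMSO. Counts of called pathway genes moved as follows, with the share of all tested genes called in the same setting in brackets. In Dex versus DMSO, 1 call (2.05%) became 2 with library size alone (3.03%), 2 with DESeq2 (4.98%) and 3 with no filter (4.56%). In KLA versus DMSO, 7 (13.7%) became 4 with the replicate block (10.3%) and 2 with the length trend removed (8.08%). With the depth class as a covariate 0 were left (0.0304%). In DexKLA versus DMSO, 3 (4.22%) became 1 with library size alone (3.62%), 6 with DESeq2 (7.04%) and 6 with no filter (4.96%). There were 5 with the length trend removed (6.21%) and 0 with the depth class (1.31%). In DexKLA versus KLA, 0 (0.653%) became 1 with no filter (1.02%). The mean effect of Dex went from 1 (1.51%) to 2 (1.9%) with the length trend removed, where FABP1 was also called (−0.32, edgeR adjusted p = 0.0244). For the mean effect of KLA the count went from 0 (0%) to 3 with DESeq2 (4.15%) and 4 with no filter (3.33%). It was 1 with the length trend removed (0.942%) and 1 when thinned (0.066%). The interaction went from 0 (0.038%) to 2 with library size alone (1.75%), 3 with DESeq2 (5.04%) and 2 with no filter (5.22%). The causes were not tested. Leaving out 1 library gave 0 to 4 calls in Dex versus DMSO, 0 to 9 in KLA versus DMSO, 0 to 8 in DexKLA versus DMSO, 0 to 1 in DexKLA versus KLA, 0 in DexKLA versus Dex, 1 to 3 in the mean effect of Dex, 0 to 3 in the mean effect of KLA and 0 to 2 in the interaction. The lowest and highest counts came from several libraries, among them DMSO replicate 1 (0 with KLA and 0 with DexKLA) and KLA replicate 3. Without KLA replicate 3 there were 1 with KLA (4.6% of all tested genes), 4 with Dex (7.12%) and 8 with DexKLA (8.39%). The labels do not say that replicate numbers pair the libraries, so the replicate block rests on no stated design. The correlation of deviations from group means was −0.31 to 0.172 over 18 same-numbered pairs, and 0 of 12 libraries correlated best with their own number. Such correlations cannot exclude pairing, since the libraries are few and differ in depth and length trend. In each alternative that left out 1 library, the remaining libraries of its group were taken to vary like the other groups. Depth limits low genes: PDK4 was not testable.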

Other observations

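Other genes of the wider list that were called fell outside the naming rule and were chosen after their values were seen. CAT, the peroxisomal catalase that removes hydrogen peroxide, was called lower with KLA (97.5 ± 2.6 to 79.1 ± 2.61 CPM, n = 3 each, log2 −0.30 ± 0.10, edgeR adjusted p = 0.0407) and held in 10 of 22 alternatives.

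The PPAR family members differed in sign with KLA. PPARG, the adipocyte form, was called higher (51.7 ± 12.7 to 87.1 ± 22.2 CPM, 0.74 ± 0.19, edgeR adjusted p = 0.0168), and the call ended without DMSO replicate 1 or KLA replicate 1 and with the depth class as a covariate. PPARD, the widely expressed form, was called lower (27.1 ± 5.32 to 19.4 ± 1.39 CPM, −0.46 ± 0.15, adjusted p = 0.0411) and held in 12 of 22 alternatives. With the length trend removed, the KLA calls of PPARD and PPARA ended and that of PPARG held. The part of the length trend in these signs was not tested beyond its removal. The coactivator PPARGC1A was not called by edgeR in the comparisons with DMSO (22.3 ± 0.322, 18.8 ± 0.562, 18.7 ± 2.46 and 21.9 ± 1.72 CPM under DMSO, Dex, KLA and DexKLA). FGF21 and CYP4A11 of the same list were at or near 0, with group means of at most 0.11 and 0.0915 plain CPM. PLIN2 (488 ± 103 CPM under DMSO and 373 ± 85 under KLA) and ANGPTL4 (20.9 ± 7.79 and 18.9 ± 8.26) were not called in the comparisons with DMSO.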
